A study of Rattus norvegicus with 12 samples.

Results

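Complement C1q and a group of genes that mark tissue macrophages were followed through heart and blood of rats given amiodarone, a cationic antiarrhythmic drug. The group holds 10 genes, Mrc1, Lyve1, Cd163, Folr2, C1qa, C1qb, C1qc, Csf1r, Aif1 and Csf1, out of 16241 genes that the array names. Probes were taken where their gene name in the scanner files is one of these, which gave 18 of 41012 probes: 3 genes have 1 probe, 6 have 2 and Csf1r has 3.

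The 4 groups were left ventricle after amiodarone, left ventricle after vehicle, whole blood after amiodarone and whole blood after vehicle, with 3 RNA pools and 1 single-colour Agilent array per pool. The animals were male Sprague-Dawley (CD) rats. Treated rats received amiodarone by mouth at 300 mg/kg a day over 10 days, and controls received the vehicle alone, 1% methylcellulose. Age is given as 10 weeks at the start in one label and 11 weeks in another. Which animals were joined in a pool, and their number, is not stated, so the p-values measure the spread between pools.

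Macrophages of the heart live among the muscle cells, where they clear debris and dying cells. Their survival depends on the receptor CSF1R, which binds the growth factor CSF1. C1q is the recognition molecule of the classical complement pathway: its A, B and C chains assemble into a collagen-like stalk with globular heads, and macrophages are its main source. MRC1 (the mannose receptor, CD206), LYVE1 (a hyaluronan receptor that lymphatic endothelium also carries), CD163 (the scavenger receptor for haptoglobin-bound haemoglobin) and FOLR2 (a folate receptor) are surface proteins used to recognise resident macrophages. AIF1 (IBA1) is an actin-binding protein of macrophages and other myeloid cells.

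Probes of C1qa and C1qc are shown, since only 1 of these 4 was well above background on most blood arrays and the results in blood turn on that. C1qb, C1qc and C1qa neighbour each other in the rat annotation, with no other listed gene between them, and their 5 probes span 15.3 kb of chromosome 5 in build rn4, listed on the minus strand. C1qa was read by 2 probes, from 155662578 to 155662637 and from 155662767 to 155662826. C1qc was also read by 2, from 155656638 to 155656697 and from 155658964 to 155659023. In the last of these, capitals mark 7 GGN triplets spaced 9 bases apart. GGN is the codon of glycine, and this spacing is that of the collagen-like stalk.
C1qa, A_44_P487761: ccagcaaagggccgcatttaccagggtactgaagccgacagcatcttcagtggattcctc
C1qa, A_44_P487764: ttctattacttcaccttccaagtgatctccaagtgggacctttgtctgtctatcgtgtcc
C1qc, A_44_P500708: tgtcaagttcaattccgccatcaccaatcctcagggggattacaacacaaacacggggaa
C1qc, A_44_P412290: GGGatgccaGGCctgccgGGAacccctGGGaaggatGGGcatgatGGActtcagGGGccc

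Values below are the log2 of each spot's processed signal minus the log2 of its array's 75th percentile, called the scaled log2 signal. The scanner software marks a probe as well above background on an array or not, and a probe was tested where it was so on all 3 arrays of at least 1 group. Well above background were 21233 to 24300 spots on amiodarone heart arrays and 21798 to 25032 on vehicle heart arrays. In blood this was 20625 to 21245 spots on amiodarone arrays and 14459 to 15548 on vehicle arrays. The 75th percentile in blood was 56.9 to 87.2 signal units after amiodarone and 20.9 to 26.1 after vehicle, so unscaled signals are also given for blood. The labels of tissue fitted their markers: the cardiac genes Myh6 and Tnnt2 read 9.67 to 11.1 in heart and at most -0.22 in blood. Of the blood genes, Alas2 read 11.1 to 13.6 in blood and 0.94 to 4.71 in heart, and Ptprc 2.83 to 4.40 and -3.77 to -2.08. Within blood, Ptprc read 2.83 to 2.99 after amiodarone and 4.11 to 4.40 after vehicle. Ptprc alone does not stand for the general leukocyte genes, most of which were higher in amiodarone blood, as given below. Within heart, Alas2 read 0.94 to 1.45 after amiodarone and 3.96 to 4.71 after vehicle. None of the member spots was saturated.

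**Figure D1:**
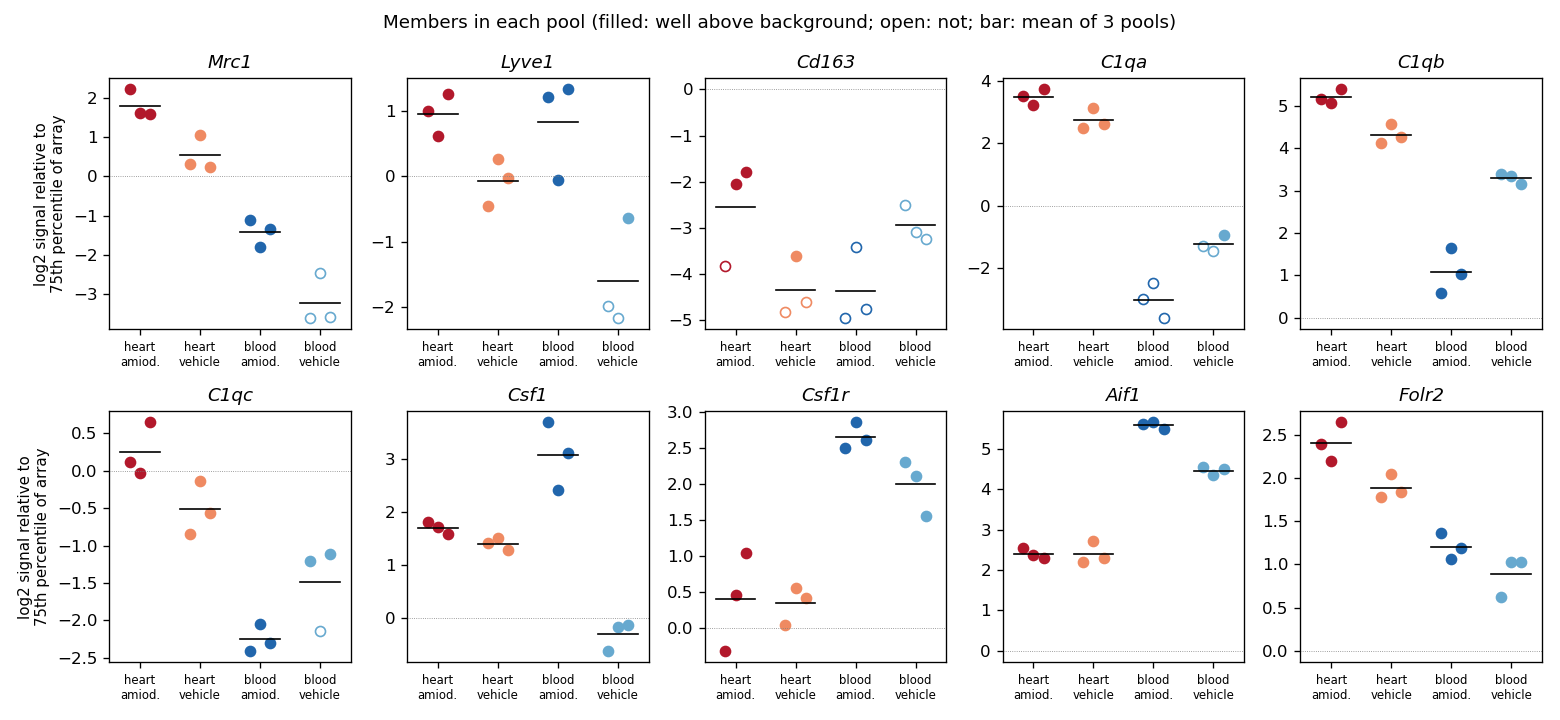
Scaled log2 signal (vertical axis) of the 10 genes in each pool of the 4 groups (horizontal axis), with filled points where the probe was well above background, open points where it was not, and a bar at the mean of 3 pools. The probe drawn is the one well above background on the most arrays, which for C1qa, C1qc and Csf1 is not the probe tested in heart; C1qb in blood lies at 0.59 to 1.65 after amiodarone and at 3.17 to 3.40 after vehicle.

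In the left ventricle, the mannose receptor, LYVE1 and the B chain of C1q were higher after amiodarone, while Csf1r and Aif1 did not pass the test. Of 10 genes, 9 were tested, and 3 were called higher and none lower at a Benjamini-Hochberg adjusted p under 0.05 over all 17468 features (limma). The share of all features called was 8.55%, with 4.33% higher and 4.22% lower. The median log2 difference was 0.70 over the 9 genes and 0.02 over all features. In 6 of the 9, the amiodarone pools all lay above the vehicle pools, as 18.8% of all features did. A lower or higher value in these bulk samples cannot tell fewer or more macrophages from less or more RNA per cell.

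Mrc1 read 2.21, 1.60 and 1.57 in amiodarone hearts, against 0.31, 1.04 and 0.24 in vehicle hearts. The groups did not overlap, and vehicle pool 2 was the highest of its group. The difference of means, amiodarone minus vehicle, was 1.26 (SE 0.27, 95% interval 0.64 to 1.89, adjusted p = 0.0315 with limma). A dimmer Mrc1 probe, well above background on all 3 amiodarone arrays and on 1 of 3 vehicle arrays, differed by 1.31 (SE 0.43, adjusted p = 0.116 with limma among all probes).

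Lyve1 read 0.99, 0.61 and 1.26 in amiodarone hearts, against -0.45, 0.26 and -0.04 in vehicle hearts. These groups did not overlap either, and the difference was 1.03 (SE 0.24, adjusted p = 0.0407 with limma). The second Lyve1 probe was well above background on 2 of 3 amiodarone and 1 of 3 vehicle heart arrays and was not tested. It read -3.43, -3.31 and -1.96 in amiodarone hearts, against -4.00, -2.48 and -3.69 in vehicle hearts, with overlap. LYVE1 also marks lymphatic endothelium, so that list was read beside it. Of 10 lymphatic genes 5 were tested, with 0 called by limma in either direction, and the list held 0.010% to 0.013% of the summed signal in amiodarone hearts and 0.013% to 0.020% in vehicle hearts.

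Cd163 could not be tested in heart. Its brighter probe was well above background in amiodarone pools 2 and 3 and in vehicle pool 2. It read -3.83, -2.04 and -1.78 in amiodarone hearts, against -4.82, -3.61 and -4.60 in vehicle hearts. The other Cd163 probe was not well above background on any of the 12 arrays. Folr2 read 2.39, 2.19 and 2.64 in amiodarone hearts, against 1.78, 2.04 and 1.84 in vehicle hearts. Its groups did not overlap, yet the difference of 0.52 (SE 0.17) missed the threshold (adjusted p = 0.101 with limma).

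The 3 C1q chains differed by similar amounts in heart. C1qb read 5.16, 5.07 and 5.38 in amiodarone hearts, against 4.12, 4.57 and 4.26 in vehicle hearts. Every amiodarone pool was above every vehicle pool, by 0.89 between means (SE 0.17, 95% interval 0.49 to 1.28, adjusted p = 0.0224 with limma). C1qa read 4.38, 4.14 and 4.60 in amiodarone hearts, against 3.43, 3.95 and 3.63 in vehicle hearts. C1qc read 2.64, 2.55 and 2.96 in amiodarone hearts, against 1.64, 2.38 and 1.83 in vehicle hearts. The groups did not overlap for either chain, but the differences of 0.70 (adjusted p = 0.0663) and 0.77 (adjusted p = 0.0823) did not pass the limma threshold. Both chains passed with normexp background correction, which adds an offset of 50 to every corrected signal (adjusted p = 0.024 and 0.0413, limma). The other probes printed above gave 0.74 for C1qa and 0.76 for C1qc, with adjusted p of 0.0864 and 0.113 among all probes (limma).

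The growth factor axis differed less in heart. Csf1 read 1.94, 1.88 and 1.57 in amiodarone hearts, against 1.60, 1.57 and 1.35 in vehicle hearts, with overlapping groups and a difference of 0.29 (SE 0.16, adjusted p = 0.303 with limma). The other Csf1 probe read 1.82, 1.71 and 1.58 in amiodarone hearts, against 1.42, 1.52 and 1.28 in vehicle hearts. Its groups did not overlap, but the difference of 0.30 did not pass either (adjusted p = 0.254 with limma). Csf1r read -0.32, 0.46 and 1.04 in amiodarone hearts, against 0.05, 0.55 and 0.42 in vehicle hearts. Amiodarone pools 1 and 3 lay outside the vehicle range on either side, and the difference of 0.06 had a wide 95% interval of -0.72 to 0.83. Aif1 read 2.54, 2.38 and 2.29 in amiodarone hearts, against 2.20, 2.71 and 2.30 in vehicle hearts. Its 95% interval reached from -0.41 to 0.41 around a difference of 0.00, and the sign of both Csf1r and Aif1 changed with the processing.

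The heart calls are close to the threshold. Within the slide that holds pools 1 and 2 of each group the differences were 1.23 for Mrc1, 0.90 for Lyve1 and 0.77 for C1qb, with adjusted p of 0.149, 0.217 and 0.187 (limma), and within the slide that holds pool 3 of each they were 1.33, 1.30 and 1.12 with no test possible. With slide as a block the limma adjusted p values were 0.0327, 0.0477 and 0.0333. Leaving out any of the 6 pools took Lyve1 past 0.05 (adjusted p of 0.051 to 0.12). Mrc1 lost its call without amiodarone pool 1 or 2 or vehicle pool 1 or 3 (up to 0.113), and C1qb without amiodarone pool 2 or 3 or vehicle pool 1 or 3 (up to 0.0925).

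Genes around these in function were counted in the same heart fit. Among 30 other macrophage genes 18 were tested, and 5 were called higher and 0 lower, with a median of 0.46. They include Lgals3, a galectin, at 1.03 (adjusted p = 0.00792), Ctss, a lysosomal protease, at 1.34 (adjusted p = 0.00851), Apoe, which carries lipid, at 1.51 (adjusted p = 0.0128) and the lectin Clec10a at 0.85 (adjusted p = 0.0384), all by limma. This list held 0.081% to 0.110% of the summed signal in amiodarone hearts and 0.044% to 0.066% in vehicle hearts. The general leukocyte genes did not move with it: of 9 tested 0 were called higher and 1 lower, their median was -0.17, and they held 0.014% to 0.016% after amiodarone and 0.013% to 0.019% after vehicle. Of 5 monocyte genes tested, limma called 0.

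Complement beyond C1q had 19 tested genes in heart, of which limma called 0 in either direction, with a median of 0.21. Serping1, the inhibitor of C1r and C1s, had the smallest p there, at 0.58 (adjusted p = 0.0587). Among 6 tested genes of C1q binding and uptake, Cd93 was called lower at -1.40 (adjusted p = 0.00119 with limma) and none higher. In the list of CSF1R signalling and myeloid transcription factors 1 of 10 was called, Cebpb at 1.53 (adjusted p = 0.00492). Among scavenger receptors and lectins 2 of 6 were called higher, the fatty acid receptor Cd36 at 1.26 (adjusted p = 0.0224) and Clec10a. Of 10 genes of haem clearance 1 was called, the metal transporter Slc11a1 at 1.10 (adjusted p = 0.0461), measured on 2 of 3 vehicle arrays. Of 4 folate genes none was called by limma, and the proton-coupled folate transporter Slc46a1 was at -0.47 (adjusted p = 0.218).

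Other cell types also differed between the heart groups. Of 11 tested red cell genes 7 were called lower, and the list held 0.008% to 0.010% of the summed signal in amiodarone hearts and 0.032% to 0.040% in vehicle hearts. Of 11 fibroblast genes 6 were called lower, at 0.059% to 0.082% of the signal after amiodarone and 0.121% to 0.186% after vehicle. Of 15 cardiomyocyte genes 1 was called, higher. Of 2 tested B cell genes 1 was called lower. The list, summed over 8 genes whether tested or not, held 0.000442% to 0.000519% of the signal after amiodarone and 0.00183% to 0.00259% after vehicle. Of 5 platelet genes 2 were called higher and 1 lower, at 0.00636% to 0.00767% after amiodarone and 0.00468% to 0.00527% after vehicle. Of 3 neutrophil genes 2 were called higher and 1 lower. The part of these shifts in the macrophage gene values was not tested.

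**Figure D2:**
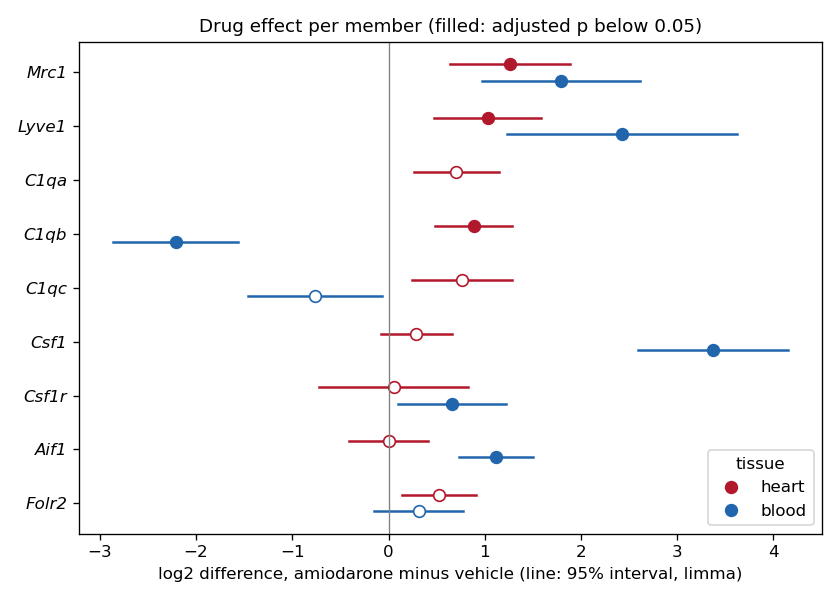
Log2 difference, amiodarone minus vehicle, per gene (horizontal axis), with its 95% interval from limma in heart (red) and in blood (blue); filled points passed an adjusted p of 0.05, and Cd163 was tested in neither tissue. C1qb lies at 0.89 in heart and at -2.21 in blood, and Csf1 at 0.29 in heart and at 3.37 in blood. For Csf1 and C1qc the probe drawn differs between the tissues. The Csf1 probe drawn in blood differed by 0.30 in heart. In vehicle blood Mrc1 was well above background on 0 of 3 arrays and Lyve1 on 1 of 3.

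In whole blood the order of the genes was another one. Csf1, the growth factor itself, showed the widest difference and was higher after amiodarone, as were Aif1 and Csf1r, whereas C1qb was lower. Lyve1 and Mrc1 passed the test too, but they entered it only through the amiodarone arrays, since they were well above background on 1 of 3 and 0 of 3 vehicle arrays. Of 10 genes 8 were tested and 6 called (5 higher and 1 lower), in a tissue where 67.4% of 15668 features were called, 40.3% higher and 27.1% lower. Such a share is near that of the genes described here. The median was 0.89 over the 8 genes and 0.44 over all features. The groups did not overlap in 7 of 8, with 6 higher and 1 lower, against 44.9% and 28.9% of all features.

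Csf1 read 3.69, 2.42 and 3.11 in amiodarone blood, against -0.61, -0.16 and -0.12 in vehicle blood. All arrays measured it well above background, and the unscaled signal was 304 to 1126 units after amiodarone and 17.1 to 23.0 after vehicle. The difference was 3.37 (SE 0.33, 95% interval 2.59 to 4.15, adjusted p = 0.000917 with limma), and the other Csf1 probe differed by 3.75 (SE 0.32). Within the slide of pools 1 and 2 the difference was 3.44 (adjusted p = 0.00871 with limma), and within that of pool 3 it was 3.23.

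Csf1r, the receptor, read 2.50, 2.86 and 2.62 in amiodarone blood, against 2.31, 2.11 and 1.56 in vehicle blood. The groups did not overlap and differed by 0.66 (SE 0.24, adjusted p = 0.0407 with limma). That call was lost in 5 of 6 fits that left out 1 pool, kept only without vehicle pool 1 (adjusted p up to 0.117), and within the slide of pools 1 and 2 (0.47, adjusted p = 0.135). Only 1 of the 3 Csf1r probes was well above background on more than 2 of the 12 arrays. A further one, listed 43.7 kb away in rn4, was so on none.

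Aif1 read 5.60, 5.65 and 5.48 in amiodarone blood, against 4.54, 4.35 and 4.49 in vehicle blood. These groups are tight and well apart, with a difference of 1.12 (SE 0.16, adjusted p = 0.00158 with limma). Its unscaled signal was 2855 to 4238 units after amiodarone and 425 to 607 after vehicle. Within the slide of pools 1 and 2 the difference was 1.18 (adjusted p = 0.0108 with limma), and within that of pool 3 it was 1.00.

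Of the surface markers, Lyve1, Mrc1 and Cd163 were dim in vehicle blood. Lyve1 read 1.22, -0.06 and 1.33 in amiodarone blood, against -1.99, -2.17 and -0.63 in vehicle blood, where only pool 3 was well above background. The fitted difference of 2.43 (SE 0.51, adjusted p = 0.00548 with limma) rests on 2 vehicle values not well above background. The second Lyve1 probe was well above background on 2 of 3 amiodarone arrays and on 0 of 3 vehicle arrays. For the brighter probe the unscaled signal was 54.5 to 202 units after amiodarone and 4.6 to 16.1 after vehicle. Mrc1 read -1.12, -1.81 and -1.34 in amiodarone blood, against -3.60, -2.46 and -3.58 in vehicle blood. No vehicle array measured Mrc1 well above background, so no fold is given, and the adjusted p was 0.00422 (limma). With normexp background correction both missed the threshold, Lyve1 at 0.52 (adjusted p = 0.111) and Mrc1 at 0.13 (adjusted p = 0.534), as did Aif1 at 1.01 (adjusted p = 0.0993) and Csf1r at 0.38 (adjusted p = 0.516).

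Folr2 read 1.36, 1.06 and 1.18 in amiodarone blood, against 0.62, 1.03 and 1.03 in vehicle blood. The groups lay side by side without overlap, and the difference of 0.31 (SE 0.20) did not pass (adjusted p = 0.186 with limma). Cd163 was not well above background on any of the 6 blood arrays.

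C1qb was the only C1q chain measured well above background on all 6 blood arrays. It read 0.59, 1.65 and 1.03 in amiodarone blood, against 3.40, 3.34 and 3.17 in vehicle blood. The difference was -2.21 (SE 0.28, 95% interval -2.87 to -1.56, adjusted p = 0.00111 with limma), with groups far apart. The unscaled signal was 131 to 178 units after amiodarone and 212 to 276 after vehicle, so the groups did not overlap there either, but without any scaling the difference was -0.61 and did not pass (adjusted p = 0.104). With normexp it was -1.32 (adjusted p = 0.0278). Within the slide of pools 1 and 2 it was -2.25 (adjusted p = 0.0108 with limma), and within that of pool 3 it was -2.14.

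The other chains were near background in blood. The C1qc probe of the collagen-like stalk, well above background on 5 of 6 arrays, read -2.41, -2.05 and -2.30 in amiodarone blood, against -1.21, -2.14 and -1.11 in vehicle blood. Its groups overlapped, and the difference of -0.76 (SE 0.30) missed the threshold (adjusted p = 0.0527 with limma). Without vehicle pool 2 it was -1.09 and passed (adjusted p = 0.008 with limma). Without scaling that value turned to 0.84 (adjusted p = 0.0472). The second C1qc probe was well above background on 0 of 6 blood arrays, and the C1qa probes on 1 of 6 each.

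**Figure D3:**
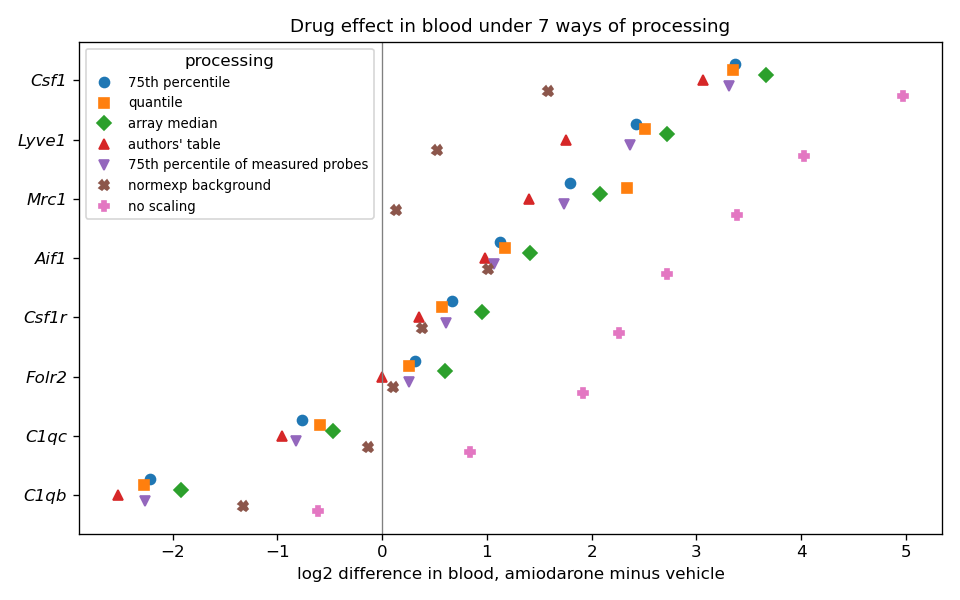
Log2 difference in blood, amiodarone minus vehicle (horizontal axis), of the 8 genes tested, under 7 ways of scaling or background correction (symbols). C1qb lies between -2.52 and -0.61 and Csf1 between 1.59 and 4.97, while C1qc lies on both sides of 0.

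Many surrounding genes in blood were called, as were most features of that tissue. With normexp background correction only 1425 of 15668 features in blood were called, and these lists were not counted there. Of 20 tested complement genes 8 were called higher and 5 lower, with a median of 0.78. Among them factor D (Cfd) was at 2.63 (adjusted p = 0.000917), Itgb2, a chain of complement receptor 3, at 1.48 (adjusted p = 0.00103), C3 at 1.56 (adjusted p = 0.00118) and factor I (Cfi) at -1.92 (adjusted p = 0.00101), all by limma. In the list around CSF1R 11 of 15 were called higher and 2 lower, with a median of 1.01. The neutrophil growth factor receptor Csf3r was at 2.13 (adjusted p = 0.000917), Spi1, which encodes the myeloid factor PU.1, at 1.67 (adjusted p = 0.00159) and the growth factor Csf2 at -2.41 (adjusted p = 0.000946). Of 19 other macrophage genes 10 were called higher and 3 lower, with a median of 0.75. They include the Fc receptor Fcgr1a at 1.64 (adjusted p = 0.00104), Apoe at 2.10 and Lgals3 at 1.98.

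Smaller lists in blood went both ways. Of 5 genes of C1q binding and uptake 3 were called higher and 1 lower, with Cd93 at 1.96 (adjusted p = 0.00672 with limma) and the chaperone Calr at -1.21 (adjusted p = 0.0019). Among 6 scavenger receptors and lectins 4 were called higher and 1 lower, which was Cd36 at -1.81 (adjusted p = 0.00811). Of 10 haem clearance genes 3 were called higher and 4 lower, and of 5 folate genes 3 lower.

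Blood cell markers shifted together with these values. Of 14 red cell genes 13 were called lower and none higher, and the list held 1.05% to 1.69% of the summed signal in amiodarone blood and 2.91% to 3.37% in vehicle blood. Of 10 neutrophil genes 7 were called higher and 1 lower, with 0.079% to 0.144% of the signal after amiodarone and 0.014% to 0.019% after vehicle. Of 9 monocyte genes 4 were called higher and none lower, with 0.125% to 0.145% after amiodarone and 0.064% to 0.077% after vehicle. The general leukocyte list, which holds Ptprc, had 6 of 9 genes called higher and 2 lower, with a median of 0.59. It held 0.751% to 0.786% of the signal after amiodarone and 0.548% to 0.642% after vehicle. Of 9 platelet genes 6 were called higher, and of 14 T cell genes 11. How far these shifts enter the macrophage gene values was not tested.

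Whether a drug effect differed between the tissues was tested with all 12 arrays in 1 limma fit, as the effect in heart minus that in blood. Of 9 genes tested, 3 were called higher and 2 lower, where 46.5% of 20057 features were called, 24.8% higher and 21.7% lower. The median over the 9 was -0.53, against -0.06 over all features. That median is the Mrc1 value, and no vehicle blood array measured Mrc1 well above background. C1qb differed by 3.10 (SE 0.35, 95% interval 2.34 to 3.86, adjusted p = 0.0002), with 0.89 in heart and -2.21 in blood. Csf1 differed by -3.07 (SE 0.39, adjusted p = 0.000333), and Aif1 by -1.12 (SE 0.24, adjusted p = 0.00393). These 3 genes were well above background on all 12 arrays.

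The calls of C1qa (2.54, adjusted p = 0.000941) and C1qc (2.92, adjusted p = 0.000265) rest on probes that entered the test through heart and were well above background in blood on 1 of 6 arrays and on 0 of 6. In unscaled units that C1qc probe had 3.77 to 4.35 in amiodarone blood and 5.16 to 6.43 in vehicle blood, so no measured drug effect in blood stands behind its value. With normexp neither passed (0.75 and 0.70, adjusted p = 0.0954 and 0.136 with limma). Their other probes gave 1.25 for C1qa (adjusted p = 0.161 with limma) and 1.52 for C1qc (adjusted p = 0.0136). Lyve1 at -1.39 (adjusted p = 0.087), Csf1r at -0.61 (adjusted p = 0.278) and Folr2 at 0.21 (adjusted p = 0.515) did not pass, with limma intervals of -2.77 to -0.02, -1.59 to 0.38 and -0.36 to 0.78. Mrc1 did not pass either (adjusted p = 0.382), and its fitted difference of -0.53 rests on vehicle blood values not well above background. The dimmer Mrc1 probe, well above background on 0 of 6 blood arrays, gave the opposite sign, at 2.80 (adjusted p = 0.00212 with limma among all probes). Lyve1 passed with slide as a block (adjusted p = 0.0388), without vehicle blood pool 3 (-1.88, adjusted p = 0.0164) and without amiodarone blood pool 2 (-1.84, adjusted p = 0.0224, limma). Without scaling 8 of the 9 passed, Folr2 among them at -1.52, and with normexp 2 passed.

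The tissues themselves were set against each other within each treatment. After amiodarone, 8 of 9 genes were called, 5 higher in heart and 3 lower, where 80.7% of features were called, 39.2% higher and 41.5% lower. In vehicle pools 9 of 9 were called, 7 higher in heart and 2 lower, against 81.1% of features, 42.2% higher and 39.0% lower. The C1q chains, Mrc1 and Folr2 were higher in heart by both comparisons, and the myeloid genes Csf1r and Aif1 were lower in heart. Of the probes tested, those of C1qc and Mrc1 were well above background on 0 of 3 vehicle blood arrays. Those of C1qa and Lyve1 were so on 1 of 3. In amiodarone blood those of C1qa and C1qc were so on 0 of 3. These probes passed the filter through groups where they were brighter, so their calls rest in part on background values.

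Over the 4 groups C1qb was highest in heart after amiodarone (5.20 ± 0.16, SD, n = 3), then in heart after vehicle (4.32 ± 0.23), in blood after vehicle (3.30 ± 0.12) and in blood after amiodarone (1.09 ± 0.53). Neighbours in this order did not overlap. Heart minus blood was 4.11 after amiodarone (adjusted p = 1.92e-08) and 1.01 after vehicle (adjusted p = 0.00231, limma). The brighter C1qc probe entered the test through heart and was well above background on no blood array. Its signal was at least 49.4-fold higher in heart than in blood after amiodarone and at least 10.3-fold after vehicle. Such bounds set the heart mean against the higher of the dim probe's own value and the lowest signal well above background on each blood array. The stalk probe of C1qc, measured on 3 of 3 amiodarone and 2 of 3 vehicle blood arrays, gave smaller log2 differences of 2.50 and 0.98, so the probes of this gene disagree in size. For C1qa the probe tested was at least 77.0-fold higher in heart after amiodarone, and after vehicle, with 1 of 3 blood arrays well above background, it differed by 3.97 on the log2 scale. The other C1qa probe was at least 34.0-fold higher in heart after vehicle.

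Mrc1 was highest in amiodarone hearts (1.79 ± 0.36), then in vehicle hearts (0.53 ± 0.44) and amiodarone blood (-1.42 ± 0.35), and not well above background in vehicle blood. Heart exceeded blood by 3.22 on the log2 scale after amiodarone (adjusted p = 3.39e-06 with limma) and by at least 3.86-fold after vehicle. The dimmer Mrc1 probe, measured on no blood array, was at least 1.29-fold higher in heart after amiodarone. Folr2 followed the same order of groups, with heart above blood by 1.20 after amiodarone and 0.99 after vehicle (adjusted p = 7.15e-05 and 0.000322 with limma).

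Heart minus blood for Lyve1 was 0.13 after amiodarone (95% interval -0.84 to 1.10, adjusted p = 0.798 with limma), where the pools overlapped. After vehicle it was 1.52 (adjusted p = 0.00744), with 1 of 3 blood arrays well above background, and the difference between the treatments did not pass, as given above. Csf1 was lower in heart than in blood after amiodarone, at -1.37 (adjusted p = 0.000655), and higher in heart after vehicle, at 1.70 (adjusted p = 0.000112, limma). Without scaling its amiodarone value was -0.54 and did not pass (adjusted p = 0.221). Csf1r was lower in heart by both comparisons, at -2.26 after amiodarone and -1.66 after vehicle, and Aif1 at -3.18 and -2.06. Without scaling the vehicle values of Csf1r and Aif1 turned to 0.90 and 0.50.

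The members were also compared by how alike their profiles ran over the 12 arrays, as the root mean square distance between log2 values centred on each gene's mean. C1qa and C1qc were closest (0.28), followed by Aif1 and Csf1r (0.53) and by Csf1 and Lyve1 (0.67), while C1qb was no nearer than 1.20 to another member. All points share the 12 arrays and the 4 groups. The C1qa and C1qc probes compared were not well above background on 5 and 6 of the 6 blood arrays, nor was Mrc1 on 3 and Lyve1 on 2, so their distances rest in part on background values. Over all named features tested, those most like Mrc1 were Asb11 (0.45), Cd63 (0.46) and Gstt2 (0.47). Those most like C1qb were Agtr1a (0.32), Kcna5 (0.32) and Enpp5 (0.33), and those most like Csf1r were Atp13a2 (0.23), Klf2 (0.26) and Syne3 (0.28).

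Start regions of Mrc1 and C1qb, which were both called higher in heart, are shown from RefSeq (assembly GRCr8), 250 bases before to 50 bases after the gene start. RefSeq windows matched 7 of the 10 genes. Capitals mark GAGGAA, the core that the myeloid factor PU.1 binds, or its reverse complement TTCCTC, searched on both strands. It occurs in 3 of 7 windows (C1qb, Csf1r and Mrc1), against 27.6% of 33469 windows of this length. The window of Lyve1, which was also called higher in heart, holds no match and is not printed. The longer GAGGAAGT occurs in 0 of 7 and in 2.42% of all windows. A match is a run of letters and not a binding site. The C1qb window is on chromosome 5 from 154407778 to 154408077, minus strand, and the Mrc1 window on chromosome 17 from 82157475 to 82157774, plus strand.
C1qb: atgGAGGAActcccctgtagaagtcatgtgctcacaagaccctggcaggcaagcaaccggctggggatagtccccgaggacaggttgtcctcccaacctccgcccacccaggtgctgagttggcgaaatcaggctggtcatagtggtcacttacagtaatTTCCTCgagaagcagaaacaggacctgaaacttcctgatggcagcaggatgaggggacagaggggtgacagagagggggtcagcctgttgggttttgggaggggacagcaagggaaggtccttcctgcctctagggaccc
Mrc1: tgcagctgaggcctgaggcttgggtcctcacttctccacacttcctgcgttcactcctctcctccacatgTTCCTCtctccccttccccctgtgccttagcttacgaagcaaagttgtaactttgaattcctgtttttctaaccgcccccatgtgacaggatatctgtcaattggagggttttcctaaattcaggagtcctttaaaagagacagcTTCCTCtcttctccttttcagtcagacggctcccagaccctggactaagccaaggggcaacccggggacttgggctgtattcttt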

How the data were processed

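The 12 scanner files, 1 per pool, hold per the file headers the processed signal intensity from Agilent Feature Extraction 9.5.1.1 after background subtraction and detrending, from paired scans, with no scaling between arrays. The deposited value table holds the authors' normalized intensity, made separately for heart and blood by a method not given in the sources used here, and served as an alternative. Intensity was put on the log2 scale here, since the deposited values are linear. Each array's 75th percentile was subtracted. Repeat spots were averaged, and outlier-flagged and control spots were left out. Testing needed a probe to be well above background on every array of some group in the fit (3 arrays), and each symbol was represented by its brightest such probe.

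Heart and blood had separate fits with limma 3.58.1 (R 4.3.3), and all 12 arrays were fitted together for differences between tissues. The tests were two-sided, with Benjamini-Hochberg adjustment over all features. A permutation test of 3 against 3 pools cannot go below p = 0.1. Values of single probes were adjusted among all probes tested. Slides were numbered within each tissue. In a tissue, pools 1 and 2 of both groups share a slide and scan, and pool 3 of both groups the other. Heart minus blood within a treatment was therefore not compared within slides.

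All 10 genes are named with every probe. From each pathway list and the other macrophage list, up to 4 called genes with the smallest p were taken, or up to 2 where none was called. The summed signal is the percentage of the signal over all probes, 1 probe per gene. The brightest probe was taken whether or not it was well above background, so these sums include genes that were not tested. Probe positions are those of build rn4 in the scanner files. The genes, lists and their rules were chosen with earlier results of these data known. The limma step was also run on simulated data with known changes in a small part of the features. Most features were called in blood, so that run does not bear on the blood calls or their scaling. The number of arrays limits the precision.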

Additional observations from a re-analysis of the deposited data

Results flagged for a closer look

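For C1qb, Csf1 and Aif1, well above background on all 12 arrays, the drug effect differed between the tissues in the limma fit of all arrays. The differences, heart effect minus blood effect, were 3.10 for C1qb, -3.07 for Csf1 and -1.12 for Aif1. The same fit gave 2.54 for C1qa and 2.92 for C1qc. C1qb and Csf1 passed the adjusted p of 0.05 under every alternative run (adjusted p up to 0.0159 and 0.014), with C1qb between 1.37 and 3.38 and Csf1 between -4.80 and -1.36. Aif1 passed under all but 1, with an adjusted p up to 0.0964. The C1qa and C1qc values rest on blood values that were well above background on 1 of 6 arrays and on 0 of 6. The other C1qc probe, measured on 5 of 6 blood arrays, gave 1.52.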

How the results depend on the processing

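The alternatives covered background correction, scaling, the authors' table, filters, probe choice, blocks, array weights and leaving out pools. Normexp called 1425 features in blood and 1875 for the difference of effects, and 5 of the 10 genes in heart, 2 in blood and 2 for the difference. Without scaling 736 features and 1 gene were called in heart, and 8 genes for the difference. With no filter the counts were 290 features and 0 genes in heart, 24663 features in blood, 18895 for the difference, 29986 for the tissues after vehicle and 25977 after amiodarone. With only probes well above background on every array the difference had 5242 features and 3 genes, the tissue comparison 7541 features and 5 genes after vehicle, and 7167 features and 5 genes after amiodarone. Array weights called 2829 features and 5 genes in heart. Within the slide of pools 1 and 2 heart had 278 features and 0 genes. With pools 1 and 2 of both tissues the difference had 5637 features.

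With the replicate block heart had 704 features and 0 genes (adjusted p of 0.0739, 0.0946 and 0.068 for Mrc1, Lyve1 and C1qb). The correlation of deviations between same-numbered pools was -0.17, -0.24 and 0.32 in heart and 0.09, 0.17 and 0.31 in blood. In heart, amiodarone pools 1 and 2 each correlated best with the vehicle pool of the other number (0.33 and 0.35), and the remaining pool with its own number. In blood, every amiodarone pool correlated best with the vehicle pool of its own number, for pool 2 by little (0.172 against 0.167). With so few pools per group, these correlations cannot decide whether same-numbered pools were paired. Leaving out 1 pool gave 530 to 1385 features and 0 to 2 genes in heart, 8323 to 10621 and 5 to 6 in blood, 7725 to 9626 and 5 to 6 for the difference, 15603 to 16380 and 9 for the tissues after vehicle, and 15508 to 16465 and 8 after amiodarone.

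Signs turned for Aif1 in heart with normexp (-0.0375), quantile scaling (-0.0622), no scaling (-0.13), the authors' table (-0.0456), the percentile over measured probes, an alternative chosen after seeing the data (-0.0606), and in fits without 1 pool (-0.10 to 0.15). They turned for Csf1r in heart without scaling (-0.0737), within the slide of pools 1 and 2 (-0.23), with that percentile (-0.0047) and without 1 pool (-0.27 to 0.41). The difference of effects turned for Mrc1 with normexp (0.89) and the mean of its probes (1.14), and for Lyve1 with normexp (0.19). It turned for Folr2 without scaling (-1.52) and with pools 1 and 2 of both tissues only (-0.0078). In blood C1qc turned without scaling (0.84) and Folr2 in the authors' table (-0.0014). Heart minus blood turned after vehicle without scaling for Csf1r (0.90) and Aif1 (0.50), and after amiodarone for Lyve1 with array weights (-0.0727) and without 1 pool (-0.32 to 0.38). The cause was not tested.

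The blood median over all features was 0.44, against 0.08 with normexp, 0.73 with median scaling, 2.04 without scaling and -1.08 with no filter, and 59.7% of blood calls were higher, against 19.0%, 69.4%, 97.5% and 26.2%. The authors' table gave 47.1%. In heart the share was 50.6%, against 64.1% with median scaling and 30.6% without scaling. For the difference of effects 53.4% of calls were higher, against 66.7% with normexp, 41.2% with quantile scaling, 43.1% with median scaling, 1.54% without scaling and 77.7% with no filter, and the median of all features was -0.06, against -1.80 without scaling and 0.96 with no filter. Heart against blood had 52.0% higher after vehicle and 48.6% after amiodarone, against 83.1% and 64.0% without scaling, 39.0% and 38.0% with normexp, and 27.9% and 31.5% with no filter, and after vehicle 62.0% with median scaling. Probes near background limit C1qa, C1qc, Cd163, Mrc1 and Lyve1 in blood. Neither the authors' table nor slide as a block was run for heart against blood within a treatment.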
